A study of Mus musculus with 17 samples.

Results

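The 10 genes followed here belong to the NRF2 antioxidant response and the defence against ferroptosis, measured across 17 mouse tumors: Nfe2l2, Nqo1, Hmox1, Gclc, Gclm, Slc7a11, Txnrd1, Srxn1, Gsr and Gpx4. They were chosen by name from the deposited table of 21931 genes, where all 10 were found, and all 10 passed the filter on low counts together with 12995 other genes. They lie on chromosomes 2 (Nfe2l2, Srxn1), 3 (Gclm, Slc7a11), 8 (Nqo1, Hmox1, Gsr), 9 (Gclc) and 10 (Txnrd1, Gpx4). The study implanted MC38 cells, a mouse colon cancer line that the labels also call mesenchymal, under the skin of wild-type C57BL/6J mice aged 6 to 8 weeks. On day 7 one tumor of each mouse in the cryoablation group was frozen in 2 cycles through a probe, and RNA was taken 5 days later from the tumor on the opposite side, which had not been frozen. The control group held 9 tumors and the cryoablation group 8, both labelled day 5, so every comparison below is of distant, unfrozen tumors. The paper's text gives the group sizes the other way round, and the sample labels were followed here. The labels do not say whether each tumor came from a different mouse, so the p-values measure the spread between these tumors.

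NRF2, the transcription factor encoded by Nfe2l2, is held at a low level by KEAP1, which hands it to a ubiquitin ligase. Oxidants and electrophiles modify KEAP1, and NRF2 then accumulates, pairs with a small MAF protein and binds antioxidant response elements near genes for glutathione synthesis, thioredoxin reduction, quinone reduction and heme breakdown. Ferroptosis is a form of cell death driven by iron and by peroxidised membrane lipids. It is held back by a chain in which the cystine carrier xCT, encoded by Slc7a11, feeds glutathione synthesis, and GPX4 uses glutathione to reduce lipid peroxides.

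The start regions of the genes were searched for the core letters of the antioxidant response element, TGACNNNGC, on both strands (GCNNNGTCA on the other). The RefSeq promoter table for GRCm38.p6, with 250 bases before and 50 after each start, held 7 of the 10 genes, and 4 of those 7 had a match in at least 1 window. Of all genes listed there 14.0% had one, as did 12.4% of the 32851 windows. The 4 windows with a match are shown because they belong to the regulator, to 2 of its reductive targets and to the glutathione enzyme subunit whose group values are given below, with the matched letters in capitals. They lie at chr2:75704614-75704913 on the minus strand (Nfe2l2), chr3:122245307-122245606 on the plus strand (Gclm), chr10:82858956-82859255 on the plus strand (Txnrd1, 1 of 3 windows) and chr2:152105274-152105573 on the plus strand (Srxn1).
Nfe2l2: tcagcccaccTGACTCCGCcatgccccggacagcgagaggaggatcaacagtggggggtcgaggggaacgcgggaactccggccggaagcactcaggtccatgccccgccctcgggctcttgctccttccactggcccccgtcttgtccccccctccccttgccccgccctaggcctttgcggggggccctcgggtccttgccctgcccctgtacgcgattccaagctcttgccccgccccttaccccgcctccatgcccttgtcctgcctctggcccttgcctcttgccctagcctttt
Gclm: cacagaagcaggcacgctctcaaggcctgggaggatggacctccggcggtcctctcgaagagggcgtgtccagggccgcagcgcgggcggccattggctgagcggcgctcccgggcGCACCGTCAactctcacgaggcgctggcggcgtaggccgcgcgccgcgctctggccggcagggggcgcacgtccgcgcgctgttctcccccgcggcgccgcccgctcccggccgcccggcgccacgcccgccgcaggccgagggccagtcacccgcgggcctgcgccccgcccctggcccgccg
Txnrd1: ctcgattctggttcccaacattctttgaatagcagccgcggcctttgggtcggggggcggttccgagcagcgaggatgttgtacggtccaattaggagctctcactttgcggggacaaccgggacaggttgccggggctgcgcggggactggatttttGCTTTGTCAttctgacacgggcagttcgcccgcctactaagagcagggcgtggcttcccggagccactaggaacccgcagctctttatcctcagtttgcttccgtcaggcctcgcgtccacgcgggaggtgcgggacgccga
Srxn1: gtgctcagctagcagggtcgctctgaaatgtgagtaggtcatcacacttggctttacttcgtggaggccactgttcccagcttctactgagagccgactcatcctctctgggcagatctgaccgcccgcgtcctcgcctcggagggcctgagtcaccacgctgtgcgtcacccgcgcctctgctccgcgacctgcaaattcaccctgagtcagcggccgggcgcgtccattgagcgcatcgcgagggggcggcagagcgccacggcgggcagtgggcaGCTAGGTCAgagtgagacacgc
The first base of the match lay 240 bases before the start in Nfe2l2, 134 before it in Gclm, 92 before it in Txnrd1 and 28 after it in Srxn1. No window of Nqo1, Slc7a11 or Gpx4 held these letters, which says nothing of sequence farther away. Hmox1, Gclc and Gsr had no entry in the table.

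Total counts ran from 14154687 to 17898672 in control tumors and from 13524899 to 16847050 in cryoablation tumors, and no 2 columns held the same values. Cryoablation replicates 2, 4 and 5 stood apart from the rest on the first principal component, which held 68.1% of the variance, at -25.5, -30.8 and -31.5 against -9.67 to 16.7 in the other 14 tumors. The same 3 tumors had the lowest slopes of log2 CPM (counts scaled to the library's size) over log2 gene length, at -0.301, -0.268 and -0.391, while control tumors lay between -0.168 and 0.195. Long genes were thus relatively low in these 3 libraries, and results are given with and without them. Control replicates 1 and 5, with the next lowest slopes (-0.135 and -0.168), stay in the fits without them. The cryoablation tumors left in those fits run from -0.014 to 0.231, so the groups are not matched in slope there either. The part of this in the changes of sign given below was not tested. Of the colon epithelium markers, Krt20, Vil1 and Cdx2 were too low to test, and the 6 that were tested summed to 25.7 to 106 CPM in control and 19.8 to 228 CPM in cryoablation tumors, against 5047 to 13335 CPM for 8 fibroblast markers over both groups. In bulk tumors a smaller share of a cell type and less RNA per cell cannot be told apart.

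Per transcript length, Gpx4 was the most abundant of the 10 genes in 16 of 17 tumors, with a median of 131.9 FPKM (fragments scaled to the listed length and the library's size), and Hmox1 was above it in control replicate 4. Gsr, which encodes glutathione reductase, followed at a median of 48.2 FPKM and Hmox1, the heme oxygenase, at 35.9 FPKM. Gsr was above Hmox1 in only 11 of 17 tumors, so their order did not hold beyond the spread. Nfe2l2, Srxn1 and Txnrd1 lay together at medians of 22.4, 22.0 and 21.5 FPKM, each above the next in 10 and 12 of 17 tumors, and Txnrd1 was above Nqo1 (10.6 FPKM) in 14. Gclc and Gclm, the catalytic and modifier subunits of the enzyme that starts glutathione synthesis, had medians of 7.85 and 7.24 FPKM and were in that order in 9 of 17 tumors. Slc7a11 was lowest in every tumor, at a median of 1.06 FPKM over a listed length of 13922 bases.

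None of the 10 genes differed between distant tumors of cryoablated mice and control tumors after adjustment, by edgeR's quasi-likelihood test with Benjamini-Hochberg adjustment over 13005 genes. No gene of the table did (percent called 0%), and DESeq2 and limma voom also called 0 genes. At an unadjusted p under 0.05, Txnrd1 was lower and Gpx4 higher in the cryoablation group, 2 of 10 genes beside 4.91% of all genes tested. Beside the 1 higher gene stood 3.74% of all genes and beside the 1 lower gene 1.17%. At the study's own threshold, which asks for an unadjusted p under 0.05 and a log2 fold change beyond 1 in either direction, the count was 0 of 10, beside 0.492% of all genes. The log2 fold change was negative for 8 of the 10 genes, with a median of -0.17, against a median of -0.01 over all genes tested, of which 6759 of 13005 were negative. The ranges of the 2 groups overlapped for all 10 genes. Without cryoablation replicates 2, 4 and 5, 0 of 10 genes had an unadjusted p under 0.05, beside 325 of 13250 genes tested. In that fit 9 of 10 log2 fold changes were negative, with a median of -0.12.

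**Figure D1:**
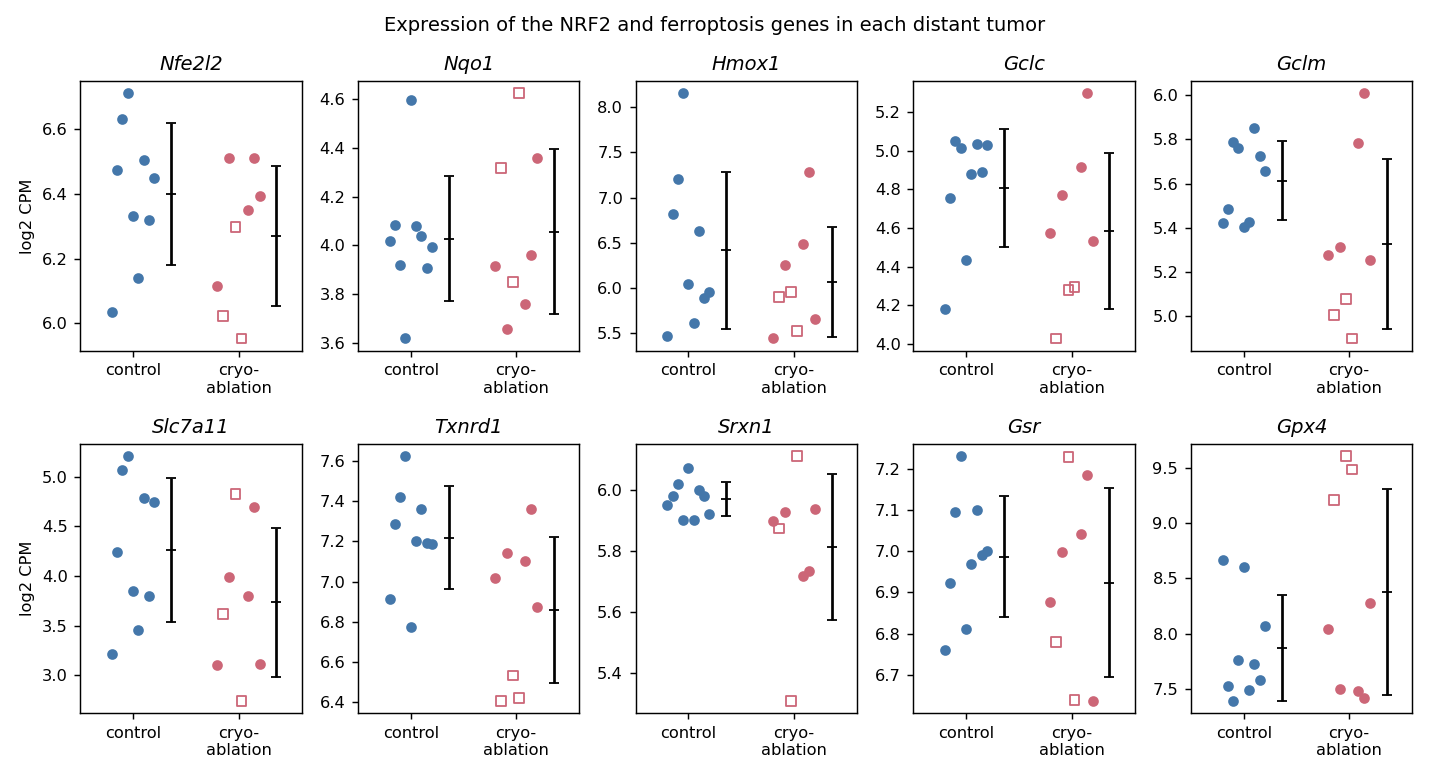
Log2 CPM of the 10 genes in each of the 17 tumors (1 panel per gene), with control and cryoablation tumors side by side, open squares for cryoablation replicates 2, 4 and 5 and a black bar for the mean ± SD. The groups overlap in every panel, and the 3 open squares lie at the top of Gpx4, at levels of 592 to 779 CPM.

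**Figure D2:**
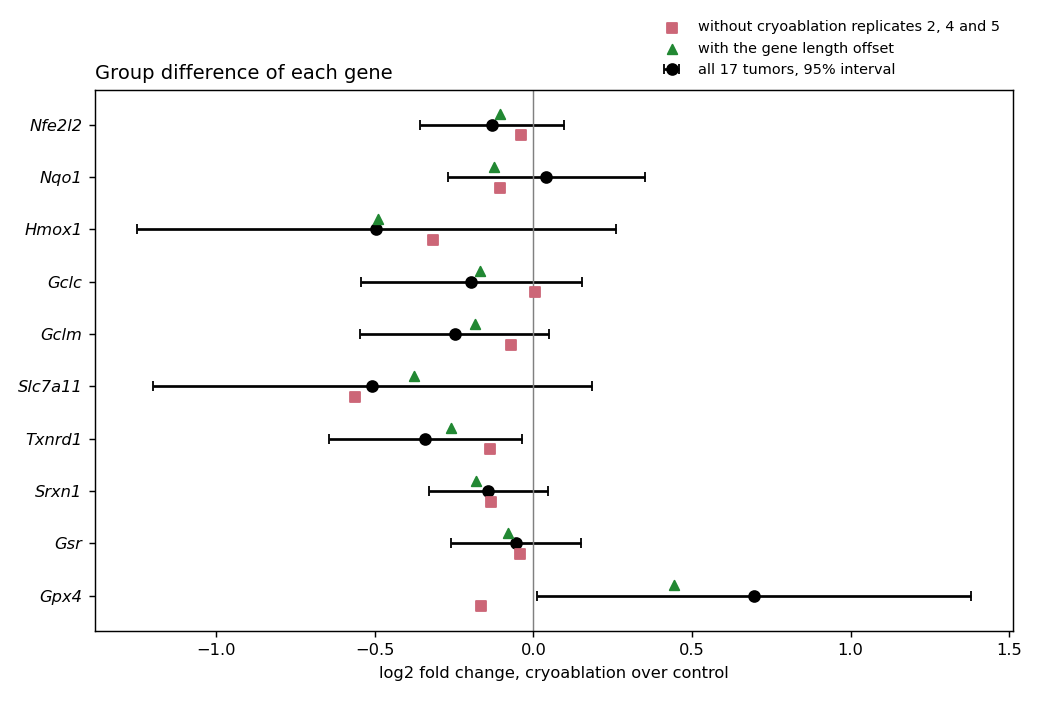
Log2 fold change of cryoablation over control for the 10 genes with its 95% interval from edgeR, with squares for the fit without cryoablation replicates 2, 4 and 5 and triangles for the fit with an offset for gene length. The intervals of Txnrd1 (-0.64 to -0.04) and Gpx4 (0.01 to 1.38) leave out 0, and the Gpx4 square is at -0.17.

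Nfe2l2 itself had a lowest, median and highest level of 65.4, 87.3 and 105 CPM in control tumors and of 61.8, 80.0 and 91.1 CPM in cryoablation tumors. In the cryoablation group 6 of 8 tumors were under the control median, and control replicate 4 had the highest level. Its log2 fold change was -0.13 (SE 0.11), with an unadjusted p of 0.239 and an adjusted p of 0.742 in edgeR's quasi-likelihood test.

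Among the classical detoxifying targets, Nqo1, the quinone reductase, ran at 12.2, 16.1 and 24.1 CPM (lowest, median, highest) in control tumors and 12.5, 15.2 and 24.5 CPM in cryoablation tumors. Both groups covered nearly the same range, with control replicate 5 high in its group and cryoablation replicates 5, 8 and 2 (24.5, 20.4 and 19.8 CPM) high in theirs. For Nqo1 the log2 fold change was 0.04 (SE 0.15, 95% interval -0.27 to 0.35), and it was -0.10 without cryoablation replicates 2, 4 and 5. Hmox1, which breaks heme down to biliverdin, carbon monoxide and iron, ran at 44.0, 65.8 and 285 CPM in control and 43.3, 60.6 and 155 CPM in cryoablation tumors. Control replicate 4 was the high control tumor and cryoablation replicate 7 the high cryoablation tumor, with all others at or under 147 CPM. For Hmox1 the log2 fold change was -0.50 (SE 0.36, unadjusted p = 0.185, adjusted p = 0.734 by edgeR's quasi-likelihood test), and -0.14 without control replicate 4 but -0.76 (unadjusted p = 0.0421) without cryoablation replicate 7.

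Of the glutathione synthesis enzymes, Gclc ran at 18.0, 29.5 and 33.1 CPM in control and 16.2, 23.3 and 39.2 CPM in cryoablation tumors. Its modifier subunit Gclm ran at 42.2, 50.3 and 57.6 CPM in control and 29.7, 38.3 and 64.2 CPM in cryoablation tumors. In both genes 6 of 8 cryoablation tumors were below the control median, while cryoablation replicate 7 was the highest of all 17 tumors. The log2 fold change was -0.20 (SE 0.17) for Gclc and -0.25 (SE 0.14) for Gclm, and the exact permutation p over all splits of the tumors was 0.217 and 0.0645. Without cryoablation replicates 2, 4 and 5 these values were 0.00 and -0.07. Slc7a11, the cystine carrier, ran at 9.19, 18.7 and 36.8 CPM in control and 6.56, 13.0 and 28.3 CPM in cryoablation tumors. Here 6 of 8 cryoablation tumors were below the control median, with replicates 4 and 7 as the exceptions at 28.3 and 25.7 CPM. Its log2 fold change was -0.51 (SE 0.33, exact permutation p = 0.159), -0.56 without cryoablation replicates 2, 4 and 5 and -0.70 (unadjusted p = 0.0461) without replicate 4 alone.

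Of the thiol reductases, Txnrd1, the cytosolic thioredoxin reductase, ran at 109, 147 and 197 CPM in control and 84.7, 123 and 164 CPM in cryoablation tumors. Under the control median were 7 of 8 cryoablation tumors, and replicates 2, 4 and 5 were the 3 lowest of all tumors at 84.7, 92.5 and 85.7 CPM. This gave a log2 fold change of -0.34 (SE 0.14, unadjusted p = 0.0299, adjusted p = 0.728 by edgeR's quasi-likelihood test, exact permutation p = 0.0324). Without those 3 tumors it was -0.14 (unadjusted p = 0.279). Leaving out control replicate 4 or cryoablation replicate 2, 4 or 5 alone put the unadjusted p between 0.0596 and 0.0635. Srxn1, sulfiredoxin, ran at 59.7, 63.0 and 67.2 CPM in control and 39.4, 59.0 and 69.1 CPM in cryoablation tumors. Its 9 control tumors lay close together, 7 of 8 cryoablation tumors were below their median, and cryoablation replicates 4 and 5 gave the lowest and the highest level of all. The log2 fold change was -0.14 (SE 0.09, unadjusted p = 0.127), with an exact permutation p of 0.0466 that reached 0.110 without cryoablation replicate 4. Gsr ran at 108, 127 and 150.1 CPM in control and 99.3, 123 and 150.0 CPM in cryoablation tumors, and 4 of 8 cryoablation tumors were below the control median. Its log2 fold change was -0.05 (SE 0.10, 95% interval -0.26 to 0.15).

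Gpx4, the peroxidase for membrane lipids, ran at 168, 212 and 406 CPM in control and 170.4, 287 and 779 CPM in cryoablation tumors. Cryoablation replicates 2, 4 and 5 held 592, 779 and 716 CPM, above every control tumor, whereas the other 5 cryoablation tumors lay between 170.4 and 309.9 CPM, inside the control range. Over all tumors the log2 fold change was 0.70 (SE 0.33, unadjusted p = 0.0466, adjusted p = 0.728 by edgeR's quasi-likelihood test, exact permutation p = 0.170). Leaving out the 3 tumors takes away the highest Gpx4 levels, so a fall in that fit was fixed by the choice of tumors. Without them the log2 fold change was -0.17 (unadjusted p = 0.497), and with an offset for gene length it was 0.44 (unadjusted p = 0.0525). The unadjusted p was also above 0.05 in 10 of 17 fits that left out 1 tumor, with log2 fold changes down to 0.48 without cryoablation replicate 4.

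**Figure D3:**
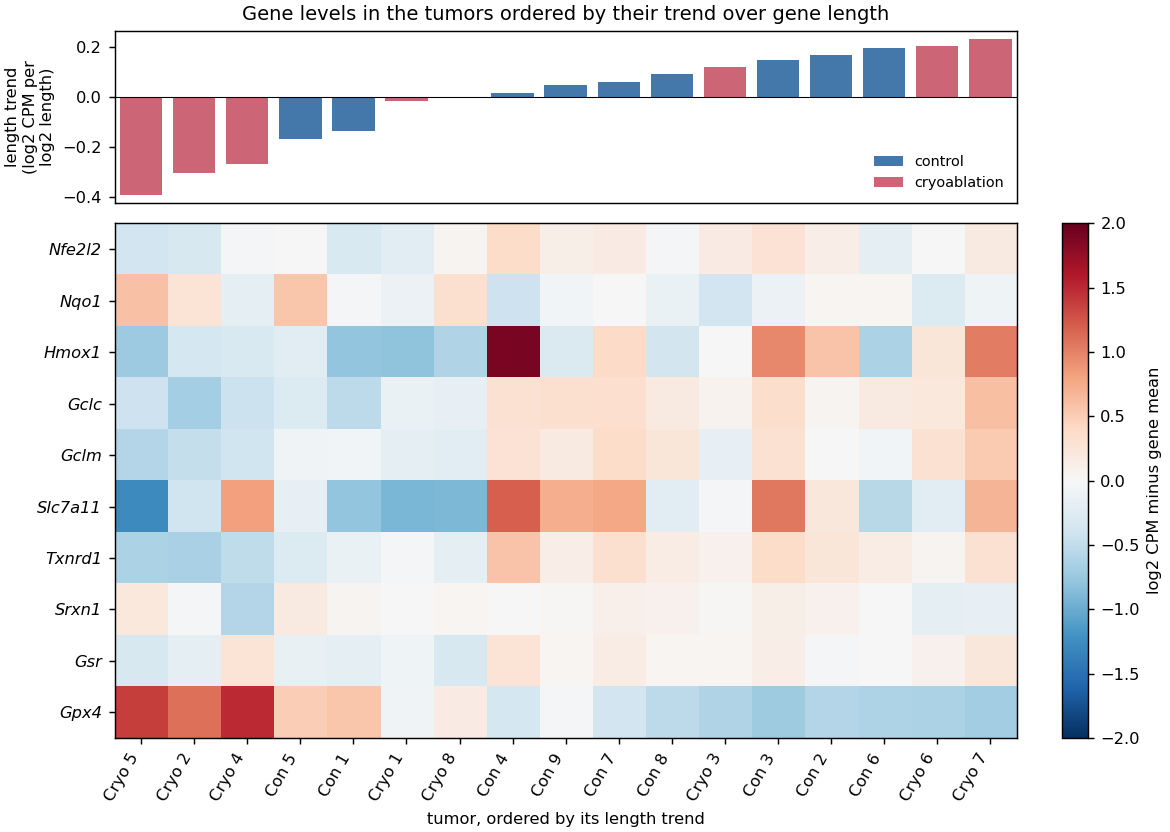
Log2 CPM of the 10 genes (rows) in the 17 tumors (columns), each row centred on its mean and the tumors ordered by the slope over gene length, which the bars above show; colors run from -2 to 2. The tumors with the lowest slopes, cryoablation replicates 5, 2 and 4, are high in Gpx4 and low in Gclc, Gclm and Txnrd1.

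Gpx4 followed the length slope most closely of the 10 genes. Across 17 tumors Pearson's r of its log2 CPM with the slope was -0.97 and Spearman's rho -0.95, and r was -0.95 within control tumors and -0.97 within cryoablation tumors. The permutation p was 1e-05, the smallest that 100000 permutations can give, and 0.00055 after adjustment over 110 relations of the 10 genes with the slope and 10 marker scores. Without the 2 tumors farthest from the median slope r was -0.95. Gclc and Txnrd1 rose with the slope at r = 0.85 each and Gclm at 0.78, with adjusted permutation p of 0.00055, 0.000733 and 0.00422, and Nfe2l2 at 0.62 (adjusted permutation p = 0.0391). Srxn1 had an r of 0.04 and Nqo1 of -0.57 (adjusted permutation p = 0.0609). Within control tumors r was 0.72 for Gclc, 0.64 for Txnrd1, 0.32 for Gclm and 0.29 for Nfe2l2. Without cryoablation replicates 2, 4 and 5 it was 0.76, 0.58, 0.48 and 0.34. The slope went with many genes, since 37.9% of all genes tested had an absolute r above 0.8 with it and 4.98% had a larger one than Gpx4. After adjustment 5 of the 10 genes (50%) were related to it. Of all genes 57.1% had an absolute r at least as large as the weakest of these, so the count does not exceed the share over all genes. The slope varied within the control group too, and its part in the group differences was not tested beyond the fit with a length offset.

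**Figure D4:**
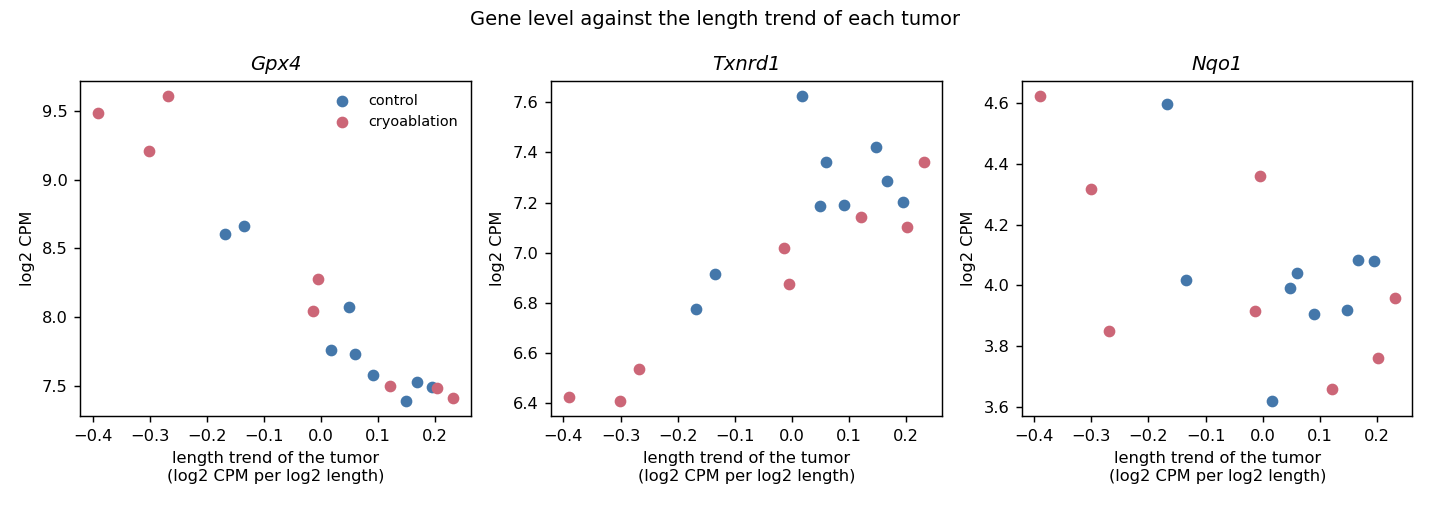
Log2 CPM of Gpx4, Txnrd1 and Nqo1 (vertical axis) against the slope of log2 CPM over log2 gene length (horizontal axis) in the 17 tumors, colored by group. Gpx4 falls along the slope in both groups (r = -0.97), Txnrd1 rises (r = 0.85) and Nqo1 scatters more (r = -0.57).

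The 10 genes varied together in part. Of 45 pairs, 32 had an adjusted permutation p under 0.05 by Pearson's r over 17 tumors, 22 positive and 10 negative, and 27 did by Spearman's rho. The weakest of the 32 had an absolute r of 0.514, which 40.1% of all pairs of genes tested reached. Gclc, Gclm and Txnrd1 had r of 0.88 for Gclc and Gclm, 0.89 for Gclc and Txnrd1 and 0.87 for Gclm and Txnrd1 (each with an adjusted permutation p of 0.0001125 for r and 0.0003375 for rho), and 0.80, 0.80 and 0.69 without cryoablation replicates 2, 4 and 5. Nfe2l2, Hmox1 and Slc7a11 were at 0.82, 0.82 and 0.79 over all tumors and at 0.86, 0.86 and 0.85 without those 3. Of all genes 0.707% had a higher r to Gclc than Txnrd1 did. Nfe2l2 went with Hmox1 (r = 0.82, rho = 0.88) and with Slc7a11 (r = 0.82, rho = 0.77), and Slc7a11 with Gsr (r = 0.86, rho = 0.86), with adjusted permutation p between 0.00015 and 0.00212 for these r and rho. Of all genes 0.0538% had a higher r to Slc7a11 than Gsr did. Without the 2 tumors farthest from the median of the first gene r stayed at 0.78, 0.72 and 0.84 for these 3 pairs, and it was 0.91, 0.96 and 0.84 within control tumors and 0.69, 0.61 and 0.93 within cryoablation tumors. After the length trend was removed from each tumor r was 0.85, 0.64 and 0.49.

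Gpx4 went the other way, with r of -0.90 to Txnrd1 and -0.85 to Gclc, and -0.72 and -0.80 without cryoablation replicates 2, 4 and 5. Nqo1 was negative with most of the others and lowest with Gsr (r = -0.76), but after the length trend was removed from each tumor r of Nqo1 with Gsr was 0.05. On the same adjusted values Nqo1 and Srxn1 had an r of 0.75. The number of pairs with an adjusted permutation p under 0.05 was 24 after removal of the length trend and 26 without the 3 tumors. It was 19 within the 9 control and 10 within the 8 cryoablation tumors. With fewer tumors a larger r is needed, so these 2 counts are not a comparison with 32 or of the groups. The share over all pairs of genes was computed for the 32 pairs only.

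**Figure D5:**
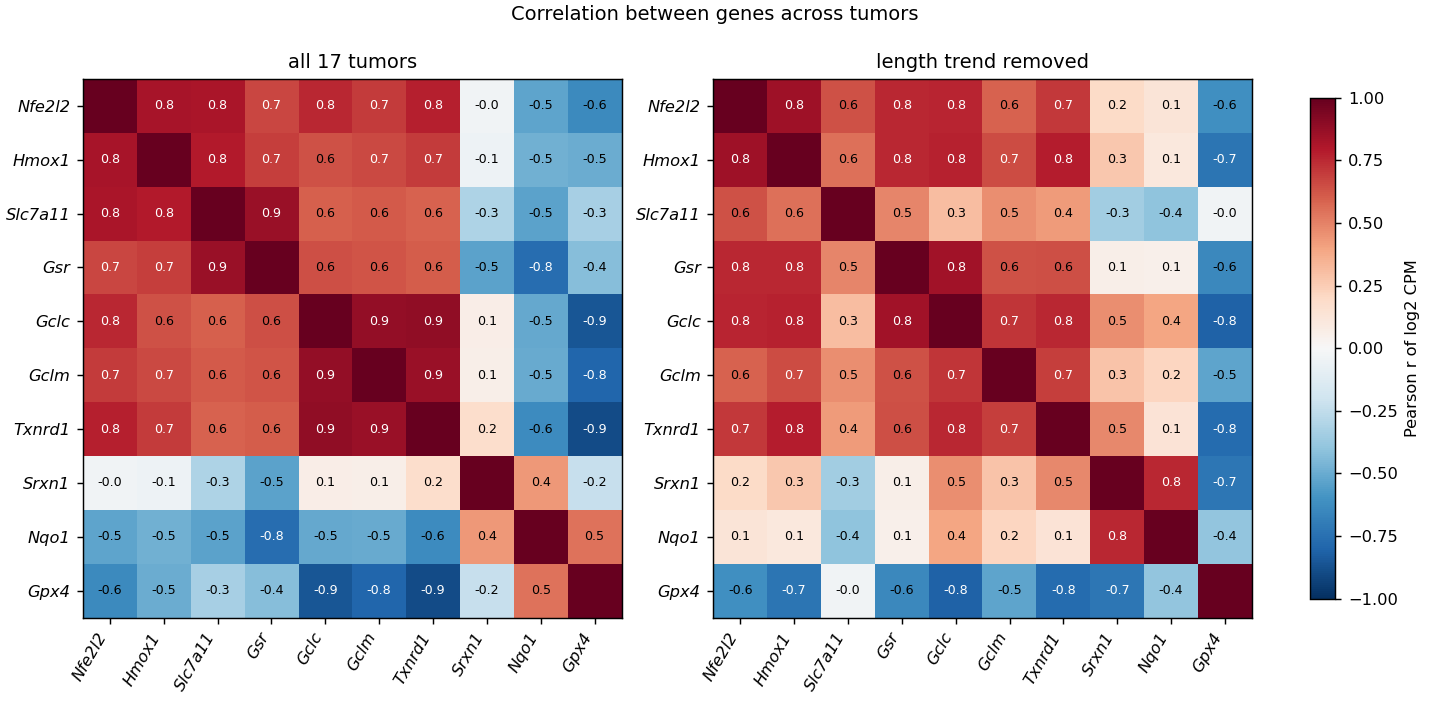
Pearson's r of log2 CPM for each of the 45 pairs of the 10 genes over 17 tumors, before and after removal of the length trend. Gclc, Gclm and Txnrd1 are positive with one another at 0.87 to 0.89 and negative with Gpx4.

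Single tumors carried the extremes. Control replicate 4 had the highest level of all 17 tumors for 5 genes, Nfe2l2, Hmox1, Slc7a11, Txnrd1 and Gsr, and the lowest for Nqo1. Cryoablation replicate 7 was highest of its group for 5, Nfe2l2, Hmox1, Gclc, Gclm and Txnrd1. Control replicate 4 also had the highest score of all 17 tumors for macrophages, neutrophils, fibroblasts and T and NK cells. Within control tumors r of Hmox1 was 0.80 with the macrophage score, 0.84 with neutrophils, 0.86 with fibroblasts, 0.80 with endothelium and 0.88 with T and NK cells. Within cryoablation tumors the same values were -0.58, 0.34, -0.11, 0.32 and -0.56. Over all 17 tumors r of Hmox1 was 0.32, 0.56, 0.65, 0.66 and 0.35 in the same order. The adjusted permutation p was 0.030 for fibroblasts and 0.024 for endothelium, and 0.071 to 0.40 for the other scores. Without the tumors farthest from each median score, as above for the slope, r was 0.05, 0.49, 0.33, 0.41 and 0.37. No r within control tumors was computed without control replicate 4. Hmox1 was not alone, since within control tumors r with T and NK cells was 0.95 for Txnrd1 and 0.90 for Gsr. Nqo1 (-0.80), Gpx4 (-0.69) and Srxn1 (-0.32) were negative with that score there. The part of these cells in the level of Hmox1 was not tested.

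Of the marker scores, only that of erythroid cells differed at an unadjusted p under 0.05, higher in cryoablation tumors by 1.42 on the log2 scale (exact permutation p = 0.00592, 0.0592 after adjustment over 10 scores). The macrophage score differed by -0.09 (exact permutation p = 0.752), with 11 markers at 2062 to 5361 CPM in control and 1424 to 7493 CPM in cryoablation tumors. After adjustment over the 110 relations, 4 genes were related to the erythroid score, Gclc (r = -0.66), Gclm (-0.64) and Txnrd1 (-0.73) downward and Gpx4 (0.73) upward, where 35.4% of all genes tested had an absolute r at least as large as the weakest of the 4. Without cryoablation replicates 2, 4 and 5 their r was -0.42, -0.30, -0.44 and 0.47. Read the same way, the epidermis score was related to 6 genes beside 50.7% of all genes, the endothelium score to 6 beside 17%, the fibroblast score to 3 beside 8.26% and the colon epithelium score to 2 beside 19.9%. The part of these cells in the levels of the 10 genes was not tested.

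The rest of the pathway was read from lists of 138 further genes, of which 123 passed the filter, 6 were higher and 7 lower at an unadjusted p under 0.05, and 0 passed adjustment. That is 10.6% of those tested beside 4.91% of all genes, and the count ran from 6 without control replicate 4 to 21 without control replicate 5. Over all genes those fits called 361 of 12961 and 1249 of 12994. Among NRF2 regulators 12 of 13 were tested, 1 was higher, 1 lower and the median log2 fold change was -0.03. Keap1, the NRF2 repressor, ran at 45.9, 50.8 and 62.5 CPM in control and 55.0, 61.0 and 69.5 CPM in cryoablation tumors. All 8 cryoablation tumors were above the control median, with a log2 fold change of 0.25 (SE 0.08, unadjusted p = 0.00526, adjusted p = 0.728 by edgeR's quasi-likelihood test), and 0.17 without cryoablation replicates 2, 4 and 5. Mafk, a small MAF partner, had -0.30 (unadjusted p = 0.0400), and -0.12 without them. Among other NRF2 targets 30 of 37 were tested with a median of 0.11, and Gstp1 (0.57, a glutathione transferase) and Abcc3 (-0.33, an export pump) had an unadjusted p under 0.05. Without cryoablation replicates 2, 4 and 5 Gstp1 was at -0.15 and Abcc3 at -0.29 (unadjusted p = 0.0924), and the Abcc3 call was also lost with the length offset (unadjusted p = 0.0714) and in 9 of 17 fits without 1 tumor.

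In glutathione synthesis and use 14 of 16 genes were tested with a median of -0.03, and Cth, which makes cysteine by transsulfuration, was lower at 1.83, 3.82 and 17.2 CPM against 4.36, 7.04 and 23.2 CPM in control (log2 fold change -1.01, SE 0.44, unadjusted p = 0.0347). It passed the study's fold threshold, beside 0.138% of all genes in that direction, with -0.78 without control replicate 4 and -1.56 without cryoablation replicate 4, and its unadjusted p was above 0.05 in 9 of 17 fits without 1 tumor. Slc3a2, the heavy chain that pairs with xCT, had a log2 fold change of 0.06 (SE 0.14) and -0.22 without cryoablation replicates 2, 4 and 5. Thioredoxin and peroxiredoxin genes (15 of 15 tested) had a median of 0.25, which was -0.17 without cryoablation replicates 2, 4 and 5, with Sesn2 lower (-0.37, unadjusted p = 0.0188) in 8 of 8 cryoablation tumors against the control median. The superoxide dismutases, catalase and other glutathione peroxidases (9 of 10 tested) had a median of 0.20, which was -0.19 without the 3 tumors. Sod1 was at 0.56 (unadjusted p = 0.0436), and at -0.08 without them.

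Of the genes that promote ferroptosis 16 of 17 were tested, with a median of -0.06, 1 higher and 2 lower. Tfrc, the transferrin receptor that imports iron, ran at 40.5, 81.3 and 102 CPM in control and 90.2, 142 and 171 CPM in cryoablation tumors. All 8 cryoablation tumors were above the control median, and the log2 fold change was 0.74 (SE 0.17, unadjusted p = 0.000306, adjusted p = 0.728 by edgeR's quasi-likelihood test), with 0.71 without cryoablation replicates 2, 4 and 5. The lipoxygenases Alox5 (-0.57, unadjusted p = 0.0194) and Alox15 (-1.53, unadjusted p = 0.0325) had lower means. Alox15 was past the study's fold threshold but at -0.56 (unadjusted p = 0.257) without control replicate 4. Alox5 was at -0.57 (unadjusted p = 0.0564) without cryoablation replicates 2, 4 and 5 and at -0.38 (unadjusted p = 0.0693) with limma voom. Acsl4, which loads membranes with polyunsaturated lipids, had a log2 fold change of 0.02 (SE 0.13). Among restraining genes 18 of 20 were tested with a median of 0.07, 1 of them, Pstk at 0.42, with an unadjusted p under 0.05, and at 0.04 without the 3 tumors. Aifm2, a ubiquinone reductase, had 0.12 (SE 0.11, 95% interval -0.10 to 0.35) and Fth1, the ferritin heavy chain, 0.10 (SE 0.20, 95% interval -0.32 to 0.52). Fth1 has processed copies in the genome, and whether they share its reads was not tested. Genes of heme breakdown and uptake (8 of 10 tested) had 0 calls and a median of -0.04. In the ATF4 response (11 of 11 tested, median -0.01) 1 gene was higher and 2 were lower, with Sesn2, given above, among the lower. Ddit3 had 0.90 (unadjusted p = 0.0199), which was 0.03 without the 3 tumors. Slc7a5, an amino acid carrier, had -0.38 (unadjusted p = 0.00860), lower than the control median in 8 of 8 cryoablation tumors. Without the 3 tumors Slc7a5 was at -0.23 and the median of the ATF4 list at -0.32.

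By pattern over 17 tumors, among 10445 genes with a mean of at least 100 counts, Nqo1 was most like Dbp (Spearman's rho 0.89), Coq9 (0.88) and Ctps2 (0.84). Hmox1 was most like Gng12, Il1rn and Nos2 (0.92, 0.92 and 0.91), and Slc7a11 like Mtm1, Pim1 and Znrf2 (0.92, 0.91 and 0.91). Gpx4 was most like Fcf1, Btf3 and Spcs1, each at 0.99. These likenesses were read over the same tumors and libraries, and are a description.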

How the data were processed

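The deposited table held whole-number read counts per gene for each tumor, made by the authors, with FPKM values beside them that equal the count divided by the listed length and by the total. The submitters' processing notes name GRCm38 and mm10; the aligner, the counter and the strandedness are not given in the sources used here. The positions listed for the 10 genes equal RefSeq's GRCm38.p6 positions in 0 of 10 cases, so none is printed. Total counts ran from 13524899 to 17898672. Counts were tested with edgeR 4.0.16 in R 4.3.3 (filterByExpr by group, TMM, quasi-likelihood test, Benjamini-Hochberg over 13005 genes), since the study's methods name edgeR, while its results name DESeq. CPM uses TMM, and log2 CPM for exact permutation tests (two-sided, 24310 splits) and correlations (100000 permutations) a prior count of 2. The test was checked on simulated data.

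Alternatives were DESeq2 1.42.0, limma 3.58.1 voom with quality weights, upper-quartile and DESeq2 size factors, no filter or a mean of 10 counts, an offset for gene length (spline, 4 df), a prior count of 0.5, a replicate block, each tumor left out, and cryoablation replicates 2, 4 and 5 left out. Figures and correlations used Python 3.11.15. The text names all 10 genes, from each list up to 4 genes of smallest unadjusted p under 0.05, Keap1, Slc3a2, Acsl4, Aifm2 and Fth1 regardless, and the 3 genes most alike in Spearman's rho to Nqo1, Hmox1, Slc7a11 and Gpx4. The genes, lists, markers and the tumors left out together were chosen with earlier results of these data known. Same-numbered control and cryoablation tumors were checked for pairing by the correlation of their deviations from the group means. It was over 0.1 in 4 of 8 pairs, and 2 correlated best with their own number. This check cannot settle whether the numbers pair the tumors, and the main test used no pairing.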

Additional observations from a re-analysis of the deposited data

Results flagged for a closer look

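Each gene or score was read in the 9 control and in the 8 cryoablation tumors, 74 groups of values in all. In 4 of 74 the highest or lowest tumor lay farther from the rest than Dixon's 95% limit, where chance gives about 1 in 20. Nqo1 in control replicate 5 was at 24.063 CPM, against 16.8 CPM in the next control tumor. Acsl4 in control replicate 1 was at 39.2083 CPM, against 57.2 CPM in the next. Cth in cryoablation replicate 4 was at 17.1821 CPM, against 5.18 CPM in the next cryoablation tumor. The macrophage score of control replicate 4 was 7.96093 (mean log2 CPM), against 6.78 in the next control tumor.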

How the results depend on the processing

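The call of 0 genes at an adjusted p under 0.05 held in every alternative. For all genes at an unadjusted p under 0.05 (639, of which 76.2% were higher), limma voom gave 1312 (46.9% higher), no filter 992 (63.5%), and the fit without cryoablation replicates 2, 4 and 5 325 (52.9%). Leaving out 1 tumor gave 252 (without cryoablation replicate 2) to 1388 (without cryoablation replicate 3). Past the study's fold threshold (64), no filter gave 432, the length offset 39, and single tumors left out 34 (without cryoablation replicate 5) to 165 (without cryoablation replicate 3). Of the 10 genes, 2 had an unadjusted p under 0.05, against 4 with voom, 1 with upper-quartile factors, 1 with the length offset and 0 without cryoablation replicates 2, 4 and 5. Over all genes 404 were higher and 176 lower with upper-quartile factors, and 567 and 140 with the length offset. With single tumors left out the count of the 10 ran from 0 to 5. It was 0 without control replicate 4 (361 of 12961 genes) or cryoablation replicate 2 (252 of 13075). It was 5 without cryoablation replicate 7 (1321 of 13078 genes). The median of the 10 genes ran from -0.25 to -0.14 with single tumors left out. For the further pathway genes (13) the count in those fits ran from 6 to 21, the latter without control replicate 5 (1249 of 12994 genes). With voom, Gclc (-0.27), Gclm (-0.32) and Slc7a11 (-0.86) had an unadjusted p under 0.05 and Gpx4 (0.33) did not. Correlated pairs numbered 19 within the 9 control and 10 within the 8 cryoablation tumors, against 32 over 17 tumors, where a smaller r passes. The exact p of Srxn1 exceeded 0.05 in 13 of 17 fits without 1 tumor.

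Signs turned as follows. With the length offset Nqo1 was at -0.12. With voom Slc3a2 was at -0.045, Acsl4 at -0.11 and Fth1 at -0.000725. Without cryoablation replicates 2, 4 and 5, Nqo1 was at -0.10, Gclc at 0.00316, Gpx4 at -0.17, Slc3a2 at -0.22, Aifm2 at -0.022, Fth1 at -0.26, Gstp1 at -0.15 and Sod1 at -0.078. With single tumors left out, Nqo1 ran from -0.053 to 0.13 (exact permutation p from 0.472 to 0.947), Slc3a2 from -0.035 to 0.11, Acsl4 from -0.039 to 0.074, Fth1 from -0.053 to 0.16, and the difference in score from -0.18 to 0.075 for macrophages and from -0.18 to 0.092 for T and NK cells. The causes were not tested.

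With a replicate block over replicates 1 to 8, 439 genes had an unadjusted p under 0.05 (45.6% higher), 33 passed the fold threshold, and 3 of the 10 genes were called, Txnrd1 with Gclm (-0.29) and Slc7a11 (-0.47), but not Gpx4 (0.52). The labels name no pairing, so the block is an alternative only. Over 8 same-numbered pairs the correlation of deviations ran from -0.51 to 0.64 and was over 0.1 in 4. Of these pairs 2 correlated best with their own number. Counts per tumor were lowest for Slc7a11 (68 to 657) and Nqo1 (183 to 342).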
